A study of Mus musculus with 10 samples.

Results

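The transcripts described here encode Toll-like receptors (Tlr2, Tlr3, Tlr4, Tlr7 and Tlr9), the adaptors Myd88 and Ticam1, the kinases Irak1 and Irak4, and the receptor chaperone Unc93b1. They were chosen because these sensors could react to an oligonucleotide drug, and every array probe that the annotation assigns to 1 of these symbols alone was taken. Of the 10 genes, 9 had such a probe, with 11 probes in all, among 18012 genes and 36088 probes tested. Ticam1 and Unc93b1 had 2 probes each, and Irak4, the kinase that starts the relay below Myd88, had none, so its level was not analysed here.

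Liver RNA of 10 mice was hybridised to 1-colour CodeLink oligonucleotide arrays, 1 array per mouse. The treated group (ASO) was 5 male C57Bl/6 mice injected intraperitoneally with an antisense oligonucleotide directed at the liver microRNA miR-122, in doses of 50 mg/kg given 2 times weekly over 4 weeks. The 5 controls received saline on the same schedule, with no strain or sex in their labels, and livers of both groups were taken 2 days after the last dose. The controls received no oligonucleotide of another sequence, so a response to oligonucleotide chemistry and a response to the loss of miR-122 cannot be told apart. The oligonucleotide was an RNA of 23 bases with 2′-O-methoxyethyl sugars and phosphorothioate links, and its sequence held 0 CG dinucleotides, the step that marks DNA for Tlr9, and 4 uridines.

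Toll-like receptors are membrane proteins that recognise molecules of microbes. Tlr2 and Tlr4 sit at the cell surface and bind lipoproteins and lipopolysaccharide, while Tlr3, Tlr7 and Tlr9 sit in endosomes and bind double-stranded RNA, single-stranded RNA and DNA rich in unmethylated CG. Unc93b1 carries the endosomal receptors out of the endoplasmic reticulum. All of these receptors except Tlr3 signal through Myd88 to Irak4 and Irak1, and Tlr3 and Tlr4 signal through Ticam1, also called TRIF. In liver, Kupffer cells, the resident macrophages, are a main site of these receptors, and hepatocytes make up most of the tissue RNA.

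The arrays had already been set to a common scale, with median intensities of 1.034 to 1.048 and 74 to 377 values at or below 0 per array. Saline replicate 1 reached 541.59 at its brightest probe, while the 9 remaining arrays reached 1198.13 to 2332.81. Hepatocyte transcripts were bright on all arrays, as the tissue label says, with Alb at 9.84 ± 0.59 in saline and 10.40 ± 0.21 in ASO livers on the log2 scale (SD, n = 5 per group). Alb read 473 in saline replicate 1 and 801 to 1287 in the other saline livers. Its log2 difference, ASO minus saline, was 0.57 with that array and 0.33 without it. The Kupffer cell marker Clec4f, named after its values were seen, was present in both groups, at 5.01 ± 0.39 in saline and 4.81 ± 0.43 in ASO livers.

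No member transcript separated the groups. By limma, 0 of the 11 probes passed an adjusted p of 0.05, where 0.0637% of all 36088 probes did, and 0 of 11 had an unadjusted p under 0.05, where 11.2% of all probes did. The smallest unadjusted p among the members was 0.121 (Irak1), and the smallest adjusted p was 0.555. In 0 of the 11 probes were the groups without overlap, against 2.37% of all probes. Log2 differences, ASO minus saline, lay between -0.56 and 0.20. Over the 9 genes, each by its brightest probe, 7 differences were below 0 and the median was -0.10, while under quantile normalization 3 were below 0 and the median was 0.02. Over all 18012 genes 54.9% were below 0 and the median was -0.04, and among the 10945 genes above the median level the median was -0.11.

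**Figure D1:**
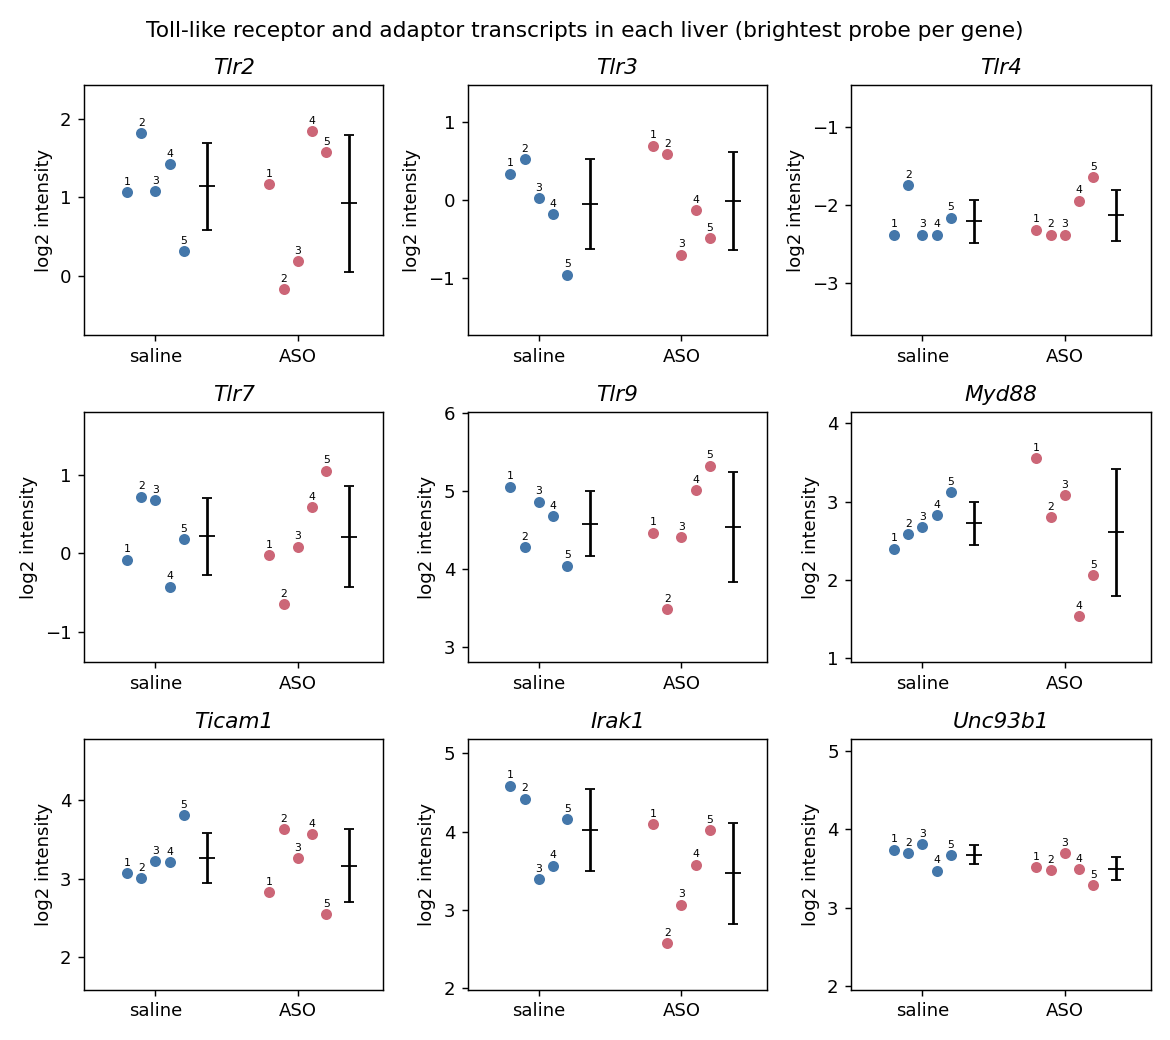
Log2 array intensity of the 9 measured members in each liver (blue, 5 saline mice; red, 5 ASO mice; the digit is the replicate number, and the bar beside each group is mean ± SD). Every panel spans the same range on the log2 axis, and the groups overlap in all 9; ASO replicates 2, 4 and 5 often lie at the edges of their group.

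The endosomal receptors, the ones that read nucleic acids, did not pass the test. Tlr9, the DNA receptor, had intensities of 33.2, 19.4, 29.1, 25.5 and 16.5 in the saline livers and 22.1, 11.3, 21.2, 32.3 and 40.0 in ASO replicates 1 to 5. The highest and the lowest of the 10 livers were both treated, and the ASO group spanned the whole saline range. The log2 difference was -0.04 ± 0.33 (SE, n = 5 per group, limma adjusted p = 0.976), with a 95% interval of -0.76 to 0.68. It was 0.22 without ASO replicate 2 and 0.11 under quantile normalization, so its sign was not settled.

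Tlr7, the receptor of single-stranded RNA, read 0.945, 1.65, 1.6, 0.744 and 1.14 in saline livers and 0.984, 0.638, 1.06, 1.51 and 2.08 in ASO replicates 1 to 5. Again the lowest value came from ASO replicate 2 and the highest from ASO replicate 5. The log2 difference was -0.0031 ± 0.33 (SE, limma adjusted p = 1.0), interval -0.72 to 0.72. Tlr3, the receptor of double-stranded RNA, read 1.26, 1.44, 1.02, 0.879 and 0.515 in saline and 1.62, 1.49, 0.615, 0.911 and 0.712 in ASO livers. Here ASO replicates 1 and 2 were the 2 highest livers and the other 3 treated livers lay inside the saline range. Its log2 difference was 0.04 ± 0.34 (SE, limma adjusted p = 0.978), interval -0.70 to 0.79. Both receptors were near the median level of all tested probes, 0.03 on the log2 scale. Tlr7 averaged 0.22 in saline and 0.21 in ASO livers, and Tlr3, below that median, -0.05 and -0.01.

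Unc93b1, which the endosomal receptors need to reach their compartment, was the steadiest member from liver to liver. Its brighter probe read 13.4, 13.0, 14.0, 11.1 and 12.7 in saline and 11.5, 11.1, 13.0, 11.3 and 9.79 in ASO livers. Only ASO replicate 5 fell outside the saline range, below it, and the log2 difference was -0.18 ± 0.15 (SE, limma adjusted p = 0.672). The interval, -0.51 to 0.14, lay inside 1.5-fold in either direction, the size the study's design text set out to detect. The second probe, much dimmer at 0.315 to 0.499 over the 10 livers, gave -0.03 ± 0.17.

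The surface receptors did not pass either. Tlr2, the lipoprotein receptor, read 2.09, 3.53, 2.11, 2.68 and 1.24 in saline and 2.25, 0.887, 1.14, 3.59 and 3.0 in ASO livers. ASO replicates 2 and 3 were below every saline liver and ASO replicate 4 was above every one. The log2 difference was -0.22 ± 0.41 (SE, limma adjusted p = 0.874), interval -1.11 to 0.67, and it turned to 0.05 without ASO replicate 2. Tlr4, the lipopolysaccharide receptor, was near the limit of the array: 5 of its 10 values lay below the floor of 0.192 that was set for dim probes, and the highest was 0.32. Its log2 difference of 0.08 ± 0.20 therefore says little about the transcript, and with values at or below 0 left out in place of the floor it was -0.63 (limma adjusted p = 0.813).

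Among the adaptors, Myd88 showed the widest split within the treated group. It read 5.27, 6.02, 6.41, 7.12 and 8.72 in saline livers and 11.8, 6.97, 8.48, 2.90 and 4.18 in ASO livers. ASO replicate 1 was above every saline liver, ASO replicates 4 and 5 were below every one, and the SD was 0.81 in the ASO group against 0.27 in saline on the log2 scale. The log2 difference was -0.12 ± 0.34 (SE, limma adjusted p = 0.927), interval -0.86 to 0.63, and it was 0.15 without ASO replicate 4.

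Ticam1, the adaptor of Tlr3 and Tlr4, read 8.42, 8.03, 9.35, 9.25 and 14.1 in saline and 7.12, 12.4, 9.61, 11.8 and 5.85 in ASO livers at its brighter probe. ASO replicates 1 and 5 were below the saline livers and the highest value came from saline replicate 5. This probe gave a log2 difference of -0.10 ± 0.25 (SE) and the second probe 0.20 ± 0.24, with limma adjusted p of 0.913 and 0.791, so the probes differed in sign and neither was called.

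Irak1, the kinase recruited to Myd88, had the largest difference of the members. It read 24.0, 21.4, 10.5, 11.8 and 17.9 in saline and 17.1, 5.96, 8.38, 12.0 and 16.2 in ASO livers. All 5 treated livers were below the saline median, ASO replicates 2 and 3 were below every saline liver, and the other 3 lay inside the saline range. The log2 difference was -0.56 ± 0.33 (SE, n = 5 per group, limma adjusted p = 0.555), a ratio of 0.678 with a 95% interval of 0.408 to 1.13. It kept its sign when any 1 array was left out, between -0.72 and -0.34, with the smaller value without ASO replicate 2.

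The sequence in front of 2 members is shown because the pathway acts through interferon and NF-kB, and letters that match their known elements were found there. RefSeq start sites (GRCm38.p6) were in the table used for 7 of the 10 members. The core of the interferon-stimulated response element, GAAANNGAAA on either strand, was found in the 250 bases upstream of Myd88 alone among them, at positions -40 to -31, and in 2.98% of all 32851 windows of that length. The NF-kB consensus was searched on either strand in a shorter form and in a longer, looser form with an extra free base. A match to either form was found upstream of 3 members (Tlr2, Tlr3 and Irak1) and in 11.3% of all windows. The last 100 bases before the start are printed 5′ to 3′ on the gene's own strand, which is the minus strand in both cases, at chr9:119340019-119340118 for Myd88 and chrX:74023922-74024021 for Irak1. Capitals mark the matched bases.
Myd88: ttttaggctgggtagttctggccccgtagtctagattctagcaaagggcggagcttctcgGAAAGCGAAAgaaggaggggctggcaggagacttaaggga
Irak1: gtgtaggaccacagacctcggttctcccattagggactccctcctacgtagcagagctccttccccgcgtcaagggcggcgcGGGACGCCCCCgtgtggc
Irak1 had 2 start sites, each with a match upstream, and the window of the first listed is printed. The Irak1 match shown spans positions -18 to -8, where readings on both strands overlap and are merged in the capitals. A match describes these letters and no binding was measured.

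**Figure D2:**
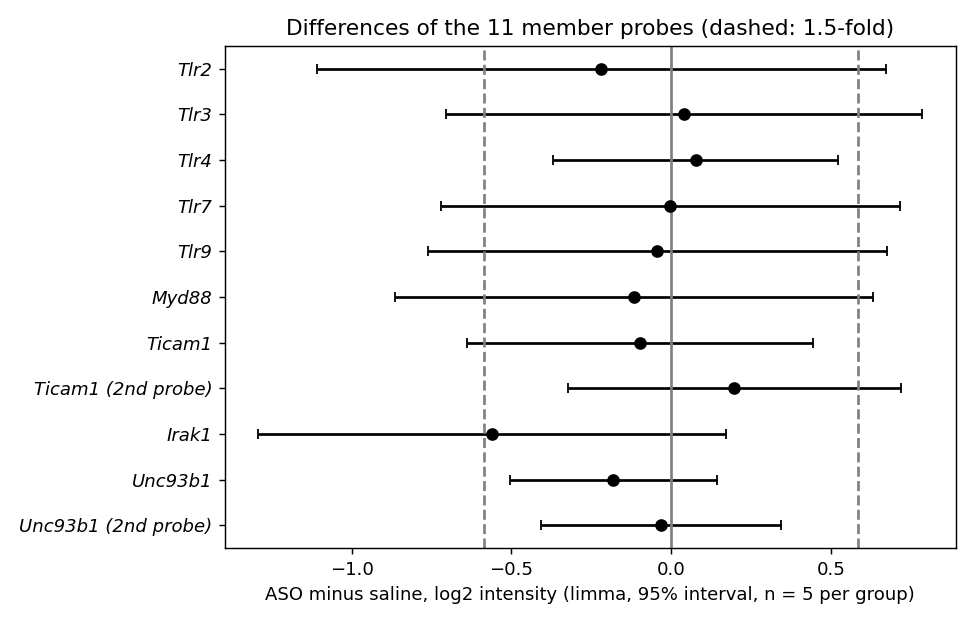
Log2 difference, ASO minus saline, of each of the 11 member probes with its 95% limma interval (n = 5 mice per group); the dashed lines mark 1.5-fold. Every interval includes 0, and those of Irak1 and Tlr2 reach below -1 on the log2 axis.

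These intervals set what the arrays could show. The upper bound was under a doubling for 11 of 11 probes and under 1.5-fold for 5 of 11, which were both Unc93b1 probes, the brighter Ticam1 probe, Irak1 and Tlr4, the last at the floor. The lower bound was above a halving on the log2 scale for 9 of 11 probes, the exceptions being Tlr2 and Irak1. Tlr4 is in all of these counts, but its interval rests on 5 values raised to the floor. Its difference was -0.63 with no floor, so its bounds set no limit on the transcript. An exact two-sided permutation test over the arrays gave p between 0.111 and 1.0 for the 11 probes, where the smallest p that 5 against 5 allows is 0.00794.

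Member probes had larger SDs among treated than among control livers, by unequal margins, and no test of variance was run. The log2 SD was 0.13 in saline and 0.15 in ASO livers for the brighter Unc93b1 probe. It was 0.57 and 0.63 for Tlr3, and 0.27 and 0.81 for Myd88. The SD over the ASO livers was larger than that over the saline livers in 11 of 11 member probes, and in 62.1% of all probes. How much of this was shared with the rest of the array was not tested. The member probes share the same arrays, and Tlr4 had 5 of 10 values at the floor. Leaving out 1 array at a time left 9 to 11 of the 11 probes with the larger SD in the ASO group, against 56.6% to 66.0% of all probes.

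Tlr2 transcript varied with macrophage markers from liver to liver, and Tlr7 did so by Pearson's r after adjustment but not by Spearman's rho. The mean of 11 Kupffer cell and macrophage markers on the log2 scale was lowest in ASO replicate 2 (1.71), highest in saline replicate 2 (3.94) and between 2.87 and 3.68 in the other 8 livers. The list was Adgre1, Clec4f, Vsig4, Cd5l, Marco, Timd4, Cd163, C1qa, C1qb, C1qc and Mpeg1, of which 8 were lower and 3 higher in the ASO group with a median of -0.31. Another 2 listed markers, Csf1r and Cd68, had no single-gene probe. The summed intensity of the 11 ran from 160 to 366 in saline and from 66.4 to 356 in ASO livers. Tlr2 was correlated with this mean over the 10 livers, with Pearson r = 0.86 (permutation p = 0.00017, adjusted over the 9 members 0.00153) and Spearman rho = 0.84 (permutation p = 0.00336, adjusted 0.0302). Without the 2 livers farthest from the median, ASO replicate 2 and saline replicate 2, r was 0.79, and it was 0.76 within saline and 0.90 within ASO livers.

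Tlr7 gave r = 0.80 (permutation p = 0.00243, adjusted 0.0109) and rho = 0.72 (permutation p = 0.0234, adjusted 0.0786), and r was 0.74 without those 2 livers, 0.63 within saline and 0.94 within ASO livers. Tlr9 gave r = 0.72 and rho = 0.61, with adjusted permutation p of 0.0506 and 0.0944; its r was 0.89 without those 2 livers, 0.98 within the 5 ASO livers and -0.10 within the 5 saline livers. Irak1 gave r = 0.73 (permutation p adjusted 0.0451), which fell to 0.25 without those 2 livers and so rests on them, and rho = 0.60 (adjusted 0.0944). Over 17754 other genes, 4.18% reached r = 0.7 and 1.52% reached 0.8 with the same markers. Tlr4, largely at the floor, gave 0.67 and 0.68 (permutation p adjusted 0.0543 and 0.0863), and r was 0.79 without those 2 livers, 0.79 within saline and 0.75 within ASO livers.

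The adaptors gave correlations below 0 that did not pass. Myd88 gave r = -0.42 and rho = -0.71 (permutation p adjusted 0.283 and 0.0786) and Ticam1 gave r = -0.54 and rho = -0.64 (0.159 and 0.0944). Without ASO replicate 2 and saline replicate 2, r was -0.83 for Myd88 and -0.44 for Ticam1. Tlr3 (r = -0.11, rho = 0.14) and Unc93b1 (r = 0.07, rho = 0.02) were near 0 or of mixed sign, with adjusted permutation p between 0.796 and 0.973. Their r without those 2 livers was 0.17 and -0.55, and Tlr3 gave 0.79 within saline and -0.51 within ASO livers. The summed intensity of 7 sinusoidal endothelial markers was likewise lowest in ASO replicate 2 (32.4). It was 101 in saline replicate 2 and highest, at 118, in ASO replicate 4. The correlations above are therefore not shown to be particular to macrophages, and those with endothelial markers were not tested. In whole liver, fewer macrophages and less transcript per macrophage cannot be told apart, and the part of the marker level in the group differences was not tested.

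**Figure D3:**
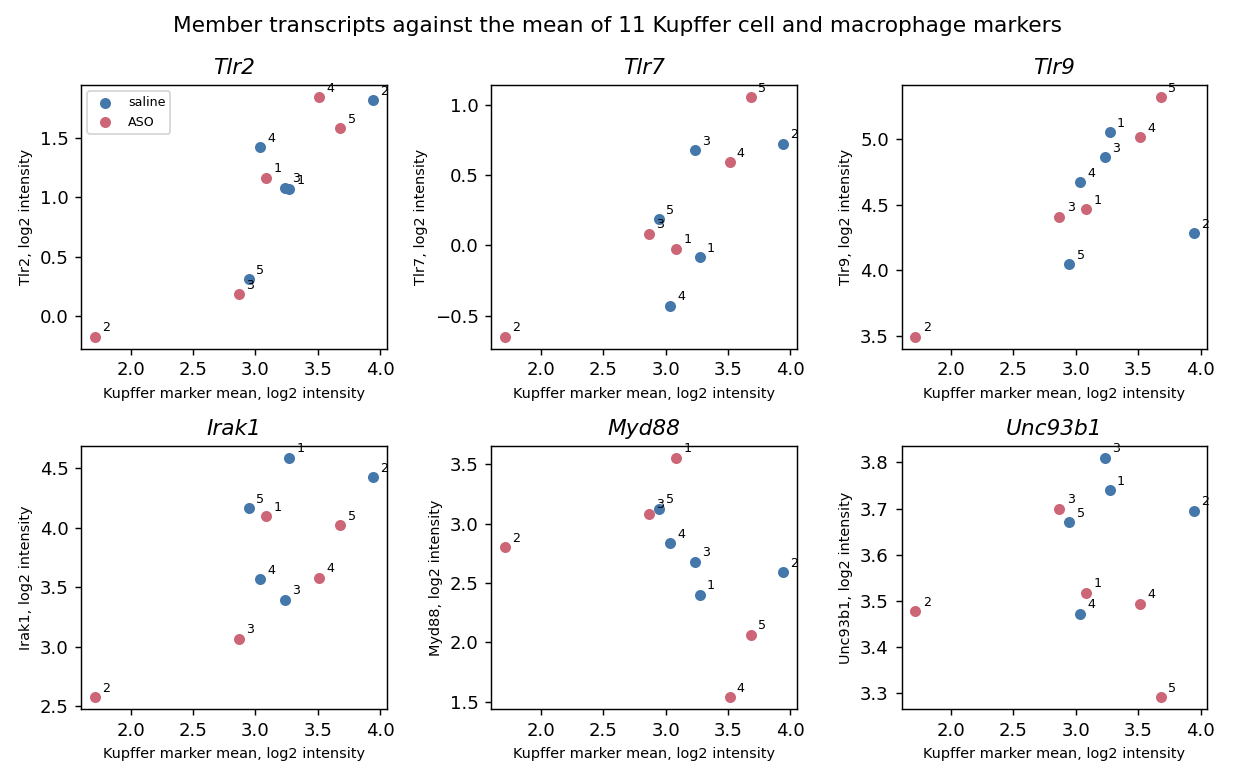
Log2 intensity of 6 members against the mean log2 intensity of 11 Kupffer cell and macrophage markers in each of the 10 livers (blue, saline; red, ASO; the digit is the replicate number; the vertical axes differ in range). Tlr2 and Tlr7 climb with the markers, and Myd88 is lowest in ASO replicates 4 and 5, which have high marker means.

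Among the members themselves, 17 of 36 pairs had r above 0 after the group means were removed, with a median of -0.07. Within the receptors, the pairs among Tlr2, Tlr4, Tlr7 and Tlr9, singled out after their values were seen, had r of 0.33 (Tlr4 with Tlr9) to 0.78 (Tlr4 with Tlr7), and each of the 4 had r of -0.58 to -0.50 with Myd88. Tlr4 had 5 of 10 values at the floor, which limits its pairs. Without Tlr4 the pairs had r of 0.59 (Tlr7 with Tlr9) to 0.71 (Tlr2 with Tlr9). Tlr3 gave -0.13, -0.26 and -0.18 with Tlr4, Tlr7 and Tlr9, and 0.19 with Tlr2. These are descriptions over 10 arrays, and the genes share those arrays. The gene above the median level most like each member over the 10 arrays was Lhfpl2 for Tlr2 (Pearson r = 0.95), Drosha for Tlr3 (0.90), Rac2 for Tlr4 (0.86), Asb13 for Tlr7 (0.93) and Col6a4 for Tlr9 (0.96). It was Scn1a for Myd88 (0.93), Avpr2 for Ticam1 (0.92), Acbd4 for Irak1 (0.97) and Ehhadh for Unc93b1 (0.91), each the highest of 10800 genes compared. Picking the highest of so many genes over 10 arrays gives a high r by itself, so no relation is read from these values.

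Other genes of the pathway were measured to see what lay around the members. Over 68 genes in 6 lists, 0 passed an adjusted p of 0.05 by limma, where 0.0888% of all genes did. At an unadjusted p under 0.05, 2 were higher (2.94%, against 4.21% of all genes) and 7 were lower (10.3%, against 8.26%), both near the share of all genes. The 7 depended on the scaling: under quantile normalization 2 of them, Irf7 and Cxcl10, kept an unadjusted p under 0.05 and 2 genes, Il10 and Zbp1, were higher. Under cyclic loess 3 of the 7 kept it (Irf7, Cxcl10 and Tnfaip3), and with 1 array left out 3 to 8 genes were lower, Irf7 and Cxcl10 among them each time. Differences were below 0 in 42 of the 68, and 1 gene, Cxcl10, had groups that did not overlap, where 2.68% of all genes did.

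Of the other Toll-like receptors 6 were measured, and 0 had an unadjusted p under 0.05, with differences of -0.997 to 0.39 and a median of -0.09. The flagellin receptor Tlr5 had the largest difference, -0.997 ± 0.49 (SE, limma adjusted p = 0.476). It was -1.40 without ASO replicate 1 and -0.63 without ASO replicate 3, whose Tlr5 value was at the floor. Its unadjusted limma p fell under 0.05 without ASO replicate 1, under cyclic loess and with trended and robust variance, and no adjusted p did. Tlr1 gave -0.53 ± 0.43 and Tlr6, like Tlr1 a partner of Tlr2, gave 0.39 ± 0.22, and neither passed. Tlr1 was -0.29 without saline replicate 2 and -0.83 without saline replicate 4, and Tlr6 was 0.19 without saline replicate 1. For Tlr1, 3 values were at the floor, those of saline replicate 4 and ASO replicates 2 and 3.

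Of the 8 co-receptors and chaperones 3 were higher and 5 lower, with a median of -0.27. Among the 5, 3 had an unadjusted limma p under 0.05, where 8.26% of all genes were lower at that p. Ly96, which encodes the MD-2 subunit that holds lipopolysaccharide on Tlr4, went from 2.82 ± 0.40 to 2.08 ± 0.69 (SD, n = 5 per group, limma adjusted p = 0.426). Lbp, the plasma protein that delivers lipopolysaccharide, gave a log2 difference of -0.54 ± 0.23 (SE), and Cd180, a relative of Tlr4 on B cells and macrophages, -0.46 ± 0.20. With an adjusted p of 0.416 and 0.428, neither passed. None of the 3 kept an unadjusted p under 0.05 under quantile normalization (0.0839 for Ly96, 0.123 for Lbp and 0.133 for Cd180) or cyclic loess (0.0665, 0.0988 and 0.113). Cd14, which binds lipopolysaccharide for Tlr4, gave -0.15 ± 0.35 and Ly86, the partner of Cd180, 0.19 ± 0.43. In the same livers 8 of 11 macrophage markers were lower, from Mpeg1 (-1.45 ± 0.48) to Marco (0.28 ± 0.78). Of the B cell markers 4 of 5 were lower, from Ms4a1 (-0.57 ± 0.16) to Cd22 (0.26 ± 0.21). The 5 measured hepatocyte markers were all higher, with a median of 0.43. Each of these markers had a limma adjusted p above 0.05, and 54.9% of all genes were below 0. The summed intensity of the B cell markers ran from 9.07 to 14.0 in saline and from 7.09 to 9.75 in ASO livers. The part of these cell types in the values of Ly96, Lbp and Cd180 was not tested.

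Adaptors and kinases other than the members were nearly centred, 4 higher and 6 lower of 10, with a median of -0.03. The kinase gene Btk gave 0.49 ± 0.25, the adaptor Ticam2 0.37 ± 0.26 and the inhibitor Tollip 0.37 ± 0.22 (SE), and 0 of 10 had an unadjusted p under 0.05. Btk was 0.27 without saline replicate 1, Ticam2 was 0.21 without saline replicate 3 or ASO replicate 5, and with a pseudocount in place of the floor the differences of Btk, Ticam2 and Tollip were 0.23, 0.19 and 0.19.

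Cytosolic sensors, which detect nucleic acids outside the endosome, were also without a call. Of 14 measured 5 were higher and 9 lower, with a median of -0.17. Eif2ak2, which encodes the RNA-activated kinase PKR, counts as higher by its brighter probe (0.15 ± 0.21), while its other probe gave -0.84 ± 0.32 (SE, limma adjusted p = 0.367). Adar, which edits double-stranded RNA, gave -0.37 ± 0.16 (SE, limma adjusted p = 0.422), Ddx58, which encodes the RNA sensor RIG-I, -0.39 ± 0.20, and Zbp1, a sensor of left-handed nucleic acid, 0.41 ± 0.21.

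Downstream, Irf7, the factor that drives interferon genes below Tlr7 and Tlr9, had intensities of 43.8, 51.0, 30.7, 38.5 and 32.8 in saline and 15.5, 13.4, 13.9, 28.7 and 34.6 in ASO livers. ASO replicates 1 to 4 were below every saline liver and ASO replicate 5 lay among them. The log2 difference was -0.98 ± 0.29 (SE, limma adjusted p = 0.266). Myd88, whose upstream window holds a match to the interferon element, stood at -0.12 in the same livers and at 0.0177 under quantile normalization. A link between Irf7 and Myd88 was not tested. Tnfaip3, an inhibitor of NF-kB signalling, gave -0.83 ± 0.33 and the NF-kB subunit gene Relb 0.55 ± 0.30. Of 12 factors and inhibitors 2 were lower at an unadjusted limma p under 0.05 and 0 higher, with a median of -0.12. Of all genes, 8.26% were lower and 4.21% higher at that p.

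Among transcripts that Toll-like receptor signalling is known to induce, 7 of 18 were higher and 11 lower, with a median of -0.10, and 0 passed. Cxcl10, a chemokine induced by interferon, read 2.79, 3.68, 3.84, 2.66 and 2.21 in saline and 1.36, 0.203, 0.789, 1.46 and 2.15 in ASO livers, each treated liver below each control liver. Its log2 difference of -1.68 ± 0.52 (SE) had a limma adjusted p of 0.279. ASO replicate 2 was close to the floor of 0.192. The Cxcl10 difference was -1.98 to -1.13 with 1 array left out, and -1.17 with a pseudocount in place of the floor. Il10, an inhibitory cytokine, was higher at 0.77 ± 0.21 (adjusted p = 0.246), and Il6 at 0.43 ± 0.18 (adjusted p = 0.411, 4 ASO livers because 1 value was missing), both dim. ASO replicates 1 to 4 exceeded every saline liver in Il10, and ASO replicate 5 was inside the saline range.

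**Figure D4:**
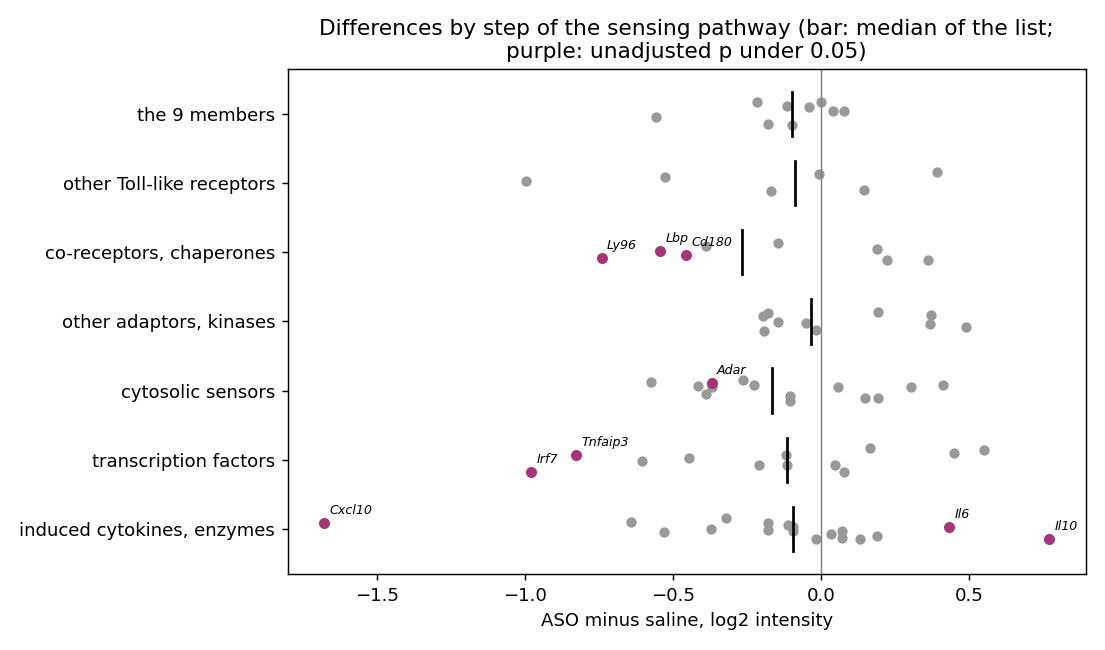
Log2 difference, ASO minus saline, of each measured gene by step of the pathway (grey points, unadjusted limma p of 0.05 or more; purple points, under 0.05; black bars, list medians). The 9 members hold no purple point, and the 2 purple points above 0 are Il6 and Il10.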

How the data were processed

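Liver RNA was measured on 10 single-channel CodeLink arrays with a biotin label, per the labels' protocols. The authors deposited 1 linear intensity per probe and array. Their software, background step, scaling and detection flags are not stated in what was used here, and the number of arrays limits the precision. Of 36227 probes, 36088 had at least 3 values in each group. Values under the 10th percentile of positive values (0.192) were raised to it before log2, which understates differences of dim probes. Probes took their names from the platform annotation through Entrez IDs of GRCm38.p6: 21615 had 1 gene, 681 several and 13931 none. Differences (ASO minus saline) were fitted across all probes with limma 3.58.1 (lmFit, eBayes) in R 4.3.3, two-sided, adjusted by Benjamini-Hochberg over all tested probes, with no batch term because none is labelled. The procedure was tested on simulated data. A gene stands for its brightest probe unless stated.

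The members and gene lists were chosen with earlier results of these data known. Named genes are all members, up to 3 genes with the smallest p per list, and the 1 gene most correlated with each member. Alternatives were quantile normalization, cyclic loess, no floor, a pseudocount of 0.5, leaving out dim probes (below the median level), limma's trended and robust variance, array weights, exact permutation, the mean of a gene's probes and leaving out each array. For genes of the pathway and marker lists they were added after the data were seen. Marker correlations used 100000 permutations.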

Additional observations from a re-analysis of the deposited data

Results flagged for a closer look

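In 1 group of a member, 1 liver lay far from the others by Dixon's test at the 95% level: saline replicate 5 read 3.81 at the brighter Ticam1 probe on the log2 scale, where the other 4 saline livers lay between 3.01 and 3.22. In pathway genes, saline replicate 1 was far below its group at Btk (-2.14, others -1.18 to -0.83) and ASO replicate 4 far above it at Zbp1 (2.88, others 2.03 to 2.25). ASO replicate 3 was at the floor for Pax5, a B cell gene (-2.38, others -0.38 to -0.11). Of 76 groups of 5 livers (or 4 with a value) checked this way, 4 were picked out, and chance picks about 1 in 20.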

How the results depend on the processing

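No member probe had an adjusted or an unadjusted p under 0.05 under any alternative that tested it; Tlr3, Tlr4 and the second Unc93b1 probe were not tested among probes above the median level. The sign was less stable: 36 of 195 comparisons of a member probe with an alternative had the opposite sign. Under quantile normalization the log2 difference of Tlr7 was 0.0185, of Tlr9 0.11, of Myd88 0.0177 and of Ticam1 0.0257, and under cyclic loess they were 0.0027, 0.0818, 0.0013 and 0.0328, with Tlr4 at -0.0107. Tlr4 was -0.63 with no floor, -0.10 with a pseudocount, where Tlr7 was 0.0078, and -0.0465 with array weights, where Tlr3 was -0.0569, Tlr9 0.0166 and Myd88 0.0082. The mean of both Ticam1 probes gave 0.0502. Leaving out 1 array at a time gave -0.45 to 0.0548 for Tlr2, -0.19 to 0.21 for Tlr3, -0.0451 to 0.19 for Tlr4, -0.21 to 0.21 for Tlr7, -0.24 to 0.22 for Tlr9, -0.35 to 0.15 for Myd88, -0.21 to 0.0573 for Ticam1 and -0.12 to 0.0477 for the second Unc93b1 probe. Irak1, the brighter Unc93b1 probe (both below 0) and the second Ticam1 probe (above 0) kept their sign under every alternative. The cause of these turns was not tested.

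The count of all probes past the adjusted threshold, 23, was 39 under cyclic loess, 7 with no floor, 43 with a pseudocount, 73 with only probes above the median level (fewer probes tested), 42 with trended and robust variance, and 0 to 16 when 1 array was left out. The median over the members was -0.18 to -0.03 with 1 array left out. No paired analysis was possible because the labels give no replicate numbers shared between the groups. Dim members (Tlr3, Tlr4 and the second Unc93b1 probe) are limited by signal over background, which the files do not give.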
